A study of Monodelphis domestica and Mus musculus with 2 samples.

Results

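This report covers the mouse tissue around the primary visual cortex (V1) on a Stereo-seq section, set against the V1 regions that the study drew by hand on the same section. Stereo-seq captures polyadenylated RNA on a barcoded chip, so that every unique molecular identifier (UMI) keeps its place in the tissue, and UMIs are then summed over segmented cells. The section, 10 µm thick, came from 1 adult male wild-type C57BL/6J mouse of about postnatal day 40 kept on a reverse light/dark cycle, whose brain was cut into 1 mm coronal slices that were frozen together in 1 block, and it was permeabilized for 12 min. V1 was found by landmarks and by a prominent layer 4, and each region covered the cortex from layer 2/3 down to layer 6. Layer 1, the pia and the white matter therefore lay outside V1 by construction, and a high level of layer 4 genes inside is in part how the regions were chosen. Cells without a V1 region were taken as outside and cells with one as inside, both with at least 50 genes and 100 UMIs. This left 110881 cells outside and 9128 cells inside, together 120009 of the 120239 cells segmented on the mouse section and of 200608 segmented in both species of the series.

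Coronal slices at the level of V1 also hold the other areas of the neocortex, the hippocampal formation behind and beneath them, the white matter, the lining of the ventricles and the meninges. The hippocampal formation is a relay of granule cells in the dentate gyrus, pyramidal cells in the CA fields, and output neurons in the subiculum, each with its own marker genes. Immediate early genes such as Fos, Egr1 and Arc are transcribed within minutes of synaptic activity, and their RNA is commonly read as a trace of recent neuronal firing.

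With 1 animal and 1 section no test was possible. The section passes through several coronal slices that were embedded side by side, so distances to the nearest V1 cell, surroundings and tiles are positions on the chip, may run from one slice to another, and do not follow the depth of one brain. The 4 V1 regions belong to the same animal and are not replicates, and their values are given as a description. Levels are UMIs of a gene per 10000 UMIs of the same cells, and the intervals are exact 95% intervals that cover counting error only. Outside cells held 135323216 UMIs, with a median of 1120 UMIs and 734 genes per cell, and inside cells held 12522787 UMIs, with medians of 1305 and 848. Median depth was 1215 UMIs per outside cell under 0.25 mm from the nearest V1 cell, 1256 at 0.25 to 0.5 mm and 958 beyond 2 mm. Mitochondrial genes made up 2.12% of UMIs outside and 1.85% inside. Cells outside carry no class or subclass label, so fewer cells of a type and less RNA per cell cannot be told apart in any value given here.

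**Figure D1:**
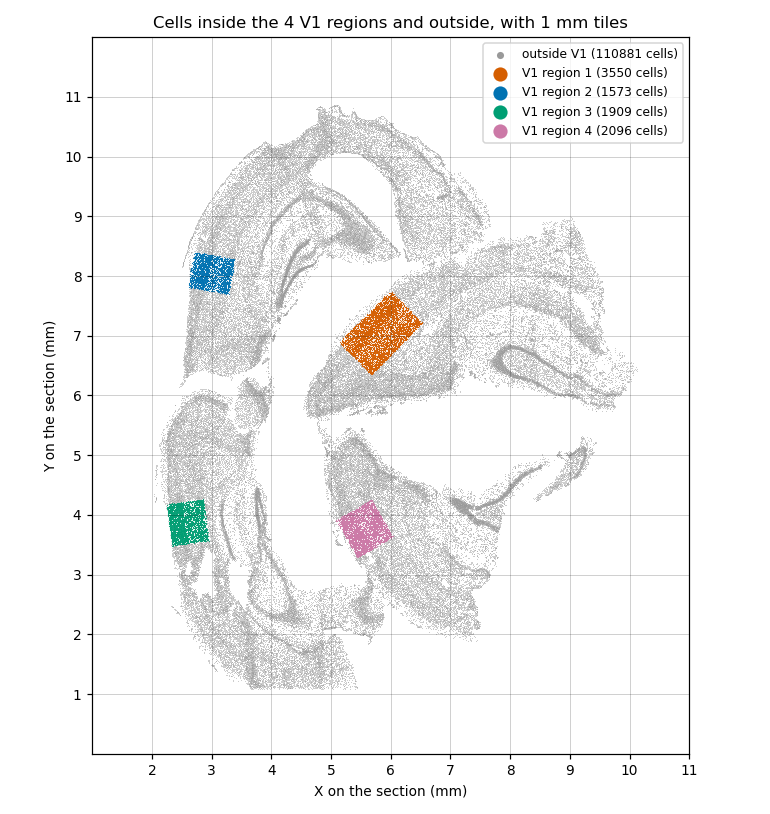
Position of every cell on the section in mm, with the 110881 outside cells in grey, the cells of the 4 V1 regions in colour and 1 mm tiles as grid lines. The V1 regions hold 3550, 1573, 1909 and 2096 cells and are a small share of the tissue.

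Most genes were at similar levels on both sides. Of 14457 genes with at least 500 UMIs, 14229 had a ratio between 0.5 and 2, the median ratio of outside over inside was 1.02, and Pearson's r of the log2 levels across genes was 0.986. A total of 187 genes (1.29%) were at least 2-fold higher outside, and 41 (0.284%) were at least 2-fold higher inside. These are named the genes called outside and called inside below. The first set held 0.457% of all UMIs outside against 0.187% inside, and the second held 0.259% against 0.601%. Of the 187 genes, 150 are protein-coding and 37 are long noncoding RNAs, and of the 41 genes, 31 are protein-coding and 7 are long noncoding RNAs. The ratios nearest to the thresholds were 2.01 and 2.00 on the outside, and 0.498 and 0.50 on the inside. The whole interval lay past 2-fold for 69 and 23 of these genes. With the median over 1 mm tiles in place of the summed level, 50 genes were called outside and 99 inside.

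**Figure D2:**
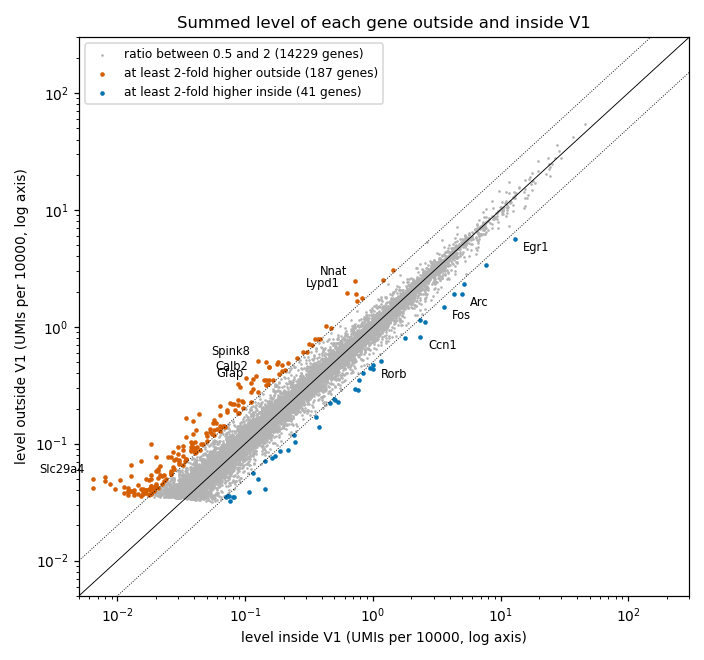
Level of each of the 14457 genes outside V1 (vertical) against inside V1 (horizontal), in UMIs per 10000 on log axes, with the line of equality and dotted lines at 2-fold. Egr1, Arc and Fos lie below the lower dotted line at high levels, whereas the 187 genes above the upper dotted line are at most at 3.05 UMIs per 10000 outside.

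Genes of neuronal identity were compared first. Slc17a7, the vesicular glutamate transporter of cortical neurons, was at 10.0 UMIs per 10000 outside and 10.5 inside. The GABA-synthesizing enzymes Gad1 and Gad2 had ratios of 0.987 (0.949 to 1.03) and 1.09 (1.01 to 1.16). Slc17a6, the transporter of most subcortical glutamatergic neurons, was low on both sides, at 0.191 outside and 0.232 inside. None of the 12 genes on a list for pallial glutamatergic identity and none of the 12 on a list for GABAergic neurons reached 2-fold in either direction, and the median ratios of these lists were 0.981 and 0.984. With 1.29% of all genes called outside and 0.284% inside, counts of 0 are near the background. The largest departure among the GABAergic genes was Pvalb, a calcium-binding protein of fast-spiking interneurons, which was 1.61-fold (1.54 to 1.69) higher inside.

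Of the 41 genes called inside, 15 were immediate early genes. Of a list of 30 such genes, which was assembled after these values had been seen, 28 could be measured, 27 had a lower level outside and 15 were at least 2-fold higher inside, with a median ratio of 0.483. Over all 14457 genes, 6499 had a lower level outside and 0.284% were called inside. The zinc finger factor Egr1 was at 12.3, 13.4, 13.5 and 13.6 UMIs per 10000 in V1 regions 1 to 4, and at 4.23, 6.83, 7.18 and 5.45 in the outside cells nearest to each region, which are called its surroundings here. All 4 regions lay above all 4 surroundings, and the summed level was 2.32-fold (2.28 to 2.36) higher inside. Arc, a regulator of glutamate receptor trafficking, had levels of 4.43, 4.96, 5.50 and 5.42 inside against 1.42, 2.34, 2.39 and 1.97, and was 2.58-fold (2.51 to 2.66) higher inside. Fos, a subunit of the AP-1 transcription factor, ran from 3.12 to 3.90 in the regions and from 1.23 to 1.75 in the surroundings, a 2.44-fold (2.36 to 2.52) difference. The nuclear receptor Nr4a1 was 2.29-fold (2.24 to 2.34) higher inside and the AP-1 subunit Junb 2.23-fold (2.17 to 2.29). On the reference, Junb overlaps Prdx2 on the other strand, and whether the counts used strand is not given in the sources used here.

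The highest ratio among these genes belonged to Ccn1, a secreted matrix protein listed in the files under its older symbol, at 2.35 inside and 0.821 outside, which is 2.86-fold (2.75 to 2.98) higher inside. Egr2, a relative of Egr1, was 2.67-fold (2.49 to 2.87) higher inside, and the phosphatase Dusp1, which turns off MAP kinases, 2.33-fold (2.24 to 2.42). Ier2, Btg2 and Ier5 had ratios of 2.30, 2.21 and 2.07 in the same direction. Jun was the exception, with 1.34 times the inside level in the outside cells. Homer1, a scaffold protein of the postsynapse with an activity-regulated short form, was 1.91-fold (1.86 to 1.96) higher inside. The gene model Gm47075, at 2.31-fold (1.85 to 2.87), overlaps Homer1 on the same strand, so that reads of the one may have been counted for the other. The gene model 1700016P03Rik was 2.27-fold (2.21 to 2.34) higher inside, at 4.35 against 1.91, and it spans the genes of the microRNAs Mir212 and Mir132 on the same strand.

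The sequence before the start site of these genes was read from GRCm39 to show which of them share response elements. The cAMP response element was searched as TGACGTCA, which reads the same on both strands, and the serum response element as the CArG box, in the 250 bases upstream of the canonical transcript of GENCODE M39. Of the 28 immediate early genes measured, 5 (17.9%) held the first element and 2 (7.14%) the second. Over all 12195 protein-coding genes measured, the shares were 2.15% and 1.12%. The matches are a description of these letters in this window, and the absence of a match says only that the letters are not there. Egr1, Fos, Arc, Junb, Nr4a1 and Ccn1, among others, were called inside and held neither element. Egr3 held the CArG box and Sik1 the cAMP response element, and neither gene was called. The promoters below belong to the 5 immediate early genes that were at least 2-fold higher inside and held an element, and the capitals mark the element. They lie at chr10:67373442-67373691 on the plus strand for Egr2, with a CArG box, and, with the cAMP response element, at chr1:134006859-134007108 on the minus strand for Btg2, chr17:26727494-26727743 on the minus strand for Dusp1, chr8:85389484-85389733 on the minus strand for Ier2 and chr15:59519897-59520146 on the plus strand for Trib1.
Egr2: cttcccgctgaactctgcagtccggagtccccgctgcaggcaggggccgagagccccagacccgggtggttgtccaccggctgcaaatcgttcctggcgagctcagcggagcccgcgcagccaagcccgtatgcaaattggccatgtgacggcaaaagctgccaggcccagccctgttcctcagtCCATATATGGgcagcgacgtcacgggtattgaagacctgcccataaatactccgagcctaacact
Btg2: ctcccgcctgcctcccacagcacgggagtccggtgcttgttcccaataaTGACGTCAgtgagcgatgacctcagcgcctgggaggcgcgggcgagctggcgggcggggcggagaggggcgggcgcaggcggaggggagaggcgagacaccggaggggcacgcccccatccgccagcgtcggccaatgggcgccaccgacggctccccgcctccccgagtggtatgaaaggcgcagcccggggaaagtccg
Dusp1: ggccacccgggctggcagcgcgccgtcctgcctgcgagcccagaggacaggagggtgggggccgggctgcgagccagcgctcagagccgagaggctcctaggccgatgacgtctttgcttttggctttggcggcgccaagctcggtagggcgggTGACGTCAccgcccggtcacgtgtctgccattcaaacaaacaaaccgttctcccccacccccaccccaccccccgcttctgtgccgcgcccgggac
Ier2: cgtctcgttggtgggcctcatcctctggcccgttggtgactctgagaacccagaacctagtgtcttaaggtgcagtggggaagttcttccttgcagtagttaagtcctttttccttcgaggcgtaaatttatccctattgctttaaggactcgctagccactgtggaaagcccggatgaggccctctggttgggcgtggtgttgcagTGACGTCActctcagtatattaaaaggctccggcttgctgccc
Trib1: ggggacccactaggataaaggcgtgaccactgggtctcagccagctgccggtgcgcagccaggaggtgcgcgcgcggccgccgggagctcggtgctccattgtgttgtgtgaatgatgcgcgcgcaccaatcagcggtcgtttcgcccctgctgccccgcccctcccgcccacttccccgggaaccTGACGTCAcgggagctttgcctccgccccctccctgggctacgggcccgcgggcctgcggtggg

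The immediate early genes did not stop at the border of V1. Egr1 was at 13.0 UMIs per 10000 inside, 10.6 in outside cells under 0.25 mm from the nearest V1 cell, 8.57 at 0.25 to 0.5 mm, 6.13 at 0.5 to 1 mm, 4.37 at 1 to 2 mm and 3.37 beyond 2 mm. Fos went from 3.60 inside to 2.90, 2.32, 1.73, 1.08 and 0.784 over the same steps, and Arc from 4.97 to 3.96, 3.12, 2.25, 1.40 and 0.843. Of the 28 immediate early genes measured, 20 were lower at every one of these steps, against 374 of all 14457 genes (2.59%). Of the 41 genes called inside, 27 were, but the steps split the same outside counts by which these genes were called. The makeup of the tissue changed over the same steps, since Mbp, a myelin gene, went from 28.3 in the nearest band to 6.65 in the farthest and the hippocampal gene Fibcd1 from 0.189 to 0.639, and the part of this in the values was not tested.

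In outside cells under 0.5 mm from V1, a comparison chosen after the data had been seen, none of 9903 genes with at least 500 UMIs (0%) was 2-fold lower than inside, and 55 (0.555%) were 2-fold higher. Not all of the 41 genes called inside had 500 UMIs in this comparison, and one that did not, Mdfic2, had a ratio of 0.456. Every one of the 41 genes called inside was lower in these near cells, with ratios from 0.456 to 0.911 and a median of 0.707. The near cells are part of the outside cells, and the inside counts are those used for the call. That all 41 were lower is therefore in part fixed by the call. For Egr1 the ratio was 0.726 (0.712 to 0.741). On 1 mm tiles, the highest Egr1 level outside was 13.3 (12.6 to 14.1) at X 4 to 5 mm and Y 6 to 7 mm, against a median of 5.17 over the 65 tiles with at least 50 outside cells. None of the 65 tiles lay above all 4 V1 regions, and 64 lay below all of them. Fos and Nr4a1 had their highest tile at the same place, at 4.60 and 8.65, and there both lay above all 4 V1 regions.

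**Figure D3:**
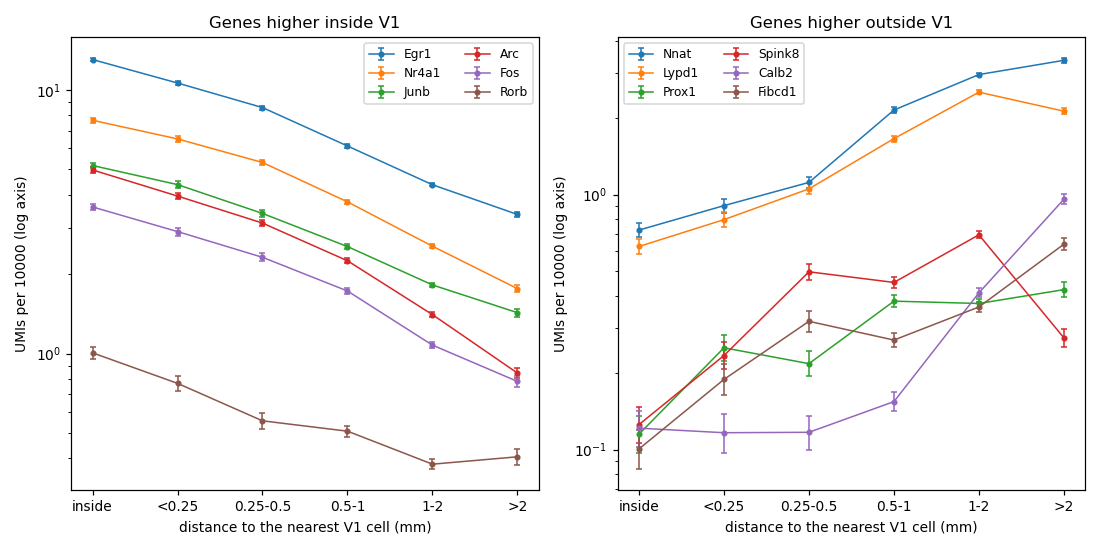
Level in UMIs per 10000 (log axis) inside V1 and in 5 bands of distance to the nearest V1 cell in mm, with exact 95% intervals, for 6 genes higher inside (left) and 6 higher outside (right). Egr1 goes from 13.0 inside to 3.37 beyond 2 mm, and Nnat from 0.726 to 3.36.

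Level profiles were compared across the 65 tiles by their correlation with reference genes chosen after the data had been seen. Pearson's r with Egr1 was 0.970 for Nr4a1, 0.967 for Fos, 0.951 for Arc and 0.820 for Rorb. These correlations describe tiles of 1 section that share libraries, depth and tissue makeup.

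Most measured genes of the upper cortical layers were also at higher levels inside. Of 11 measured genes of a list for layers 2/3 and 4, 9 were lower outside and 2 were at least 2-fold higher inside, with a median ratio of 0.631, against 6499 of 14457 lower outside and 0.284% called inside over all genes. Rorb, a nuclear receptor of layer 4, was at 0.982, 1.07, 1.04 and 0.963 in the 4 regions and at 0.386, 0.549, 0.496 and 0.501 in their surroundings, 2.15-fold (2.02 to 2.29) higher inside. The Wnt agonist Rspo1 was 2.40-fold (2.12 to 2.72) higher inside, the layer 2 to 4 factor Cux2 1.70-fold (1.60 to 1.80), the related Cux1 1.54-fold (1.43 to 1.65) and Lamp5 1.76-fold (1.68 to 1.83). Calb1 and Otof went the other way, at 1.19 and 1.17 times the inside level outside, and the interval of Otof (0.962 to 1.43) included 1. Since layer 4 guided the drawing of V1, the values of its genes are no independent finding.

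Among 11 measured genes of layers 5 and 6, 1 was at least 2-fold higher inside, none was higher outside, and the median ratio was 0.874, against 0.284% of all genes called inside and 1.29% called outside. That gene was Foxp2, a factor of layer 6 neurons, at 0.464 inside and 0.223 outside. The other genes lay on both sides of 1, with ratios of 0.606 for Syt6, 0.639 for Deptor, 0.816 for Rprm, 0.849 for Tle4 and 0.874 for Fezf2, and of 1.05 for Parm1 and Sulf1, 1.27 for Bcl11b, 1.42 for Etv1 and 1.80 for Tshz2. No gene of 5 measured for layer 6b and the subplate reached 2-fold, with a median ratio of 0.917. The list of neurofilaments and genes of large axons had 1 of 10 members called, against 1.29% of all genes called outside, and in the direction opposite to its median of 0.857: Spp1, a secreted phosphoprotein, was 2.38-fold (1.63 to 3.61) higher outside with 28 UMIs inside.

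The remaining genes with the lowest ratios were of other kinds. Mdfic2 had the lowest of all, 3.46-fold (2.91 to 4.10) higher inside, with 179 UMIs inside and 559 outside, and its 4 regions (0.159, 0.213, 0.0789 and 0.122) lay above all surroundings (0.0323 to 0.0512). The immunoglobulin heavy chain gene Ighm was 2.74-fold (2.47 to 3.03) higher inside, with 472 UMIs there. The cholesterol hydroxylase Cyp39a1 was 2.73-fold (2.24 to 3.30) higher inside, the myosin light chain Myl4 2.47-fold (2.30 to 2.66), the muscle-related Igfn1 2.36-fold (2.17 to 2.57) and Ctxn3 2.51-fold (2.10 to 2.99). The noncoding genes Gm50076 and Gm13601 had ratios of 2.46 and 2.39 in the same direction, and Ccer2 one of 2.36. Most of these genes overlap another gene model on the reference, as Myl4 does Cdc27 and Ccer2 does Nfkbib on the other strand and Igfn1 does Gm71632 on the same strand, so that their counts may hold reads of a neighbour.

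Over all 41 genes, 39 were higher in each V1 region than in its surroundings, and the same number had no overlap between the 4 regions and the 4 surroundings, a pattern seen in 1151 of 14457 genes (7.96%). The exceptions were Gm47075 and Gm56511. The regions and surroundings split the same counts by which the 41 genes were called. The agreement between them is therefore in part fixed by the call and is given as a description. Leaving out V1 region 1 together with its surroundings, which hold 41623 of the outside cells, lowered the count of genes called inside from 41 to 21. Without region 1 alone the count was 53.

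**Figure D4:**
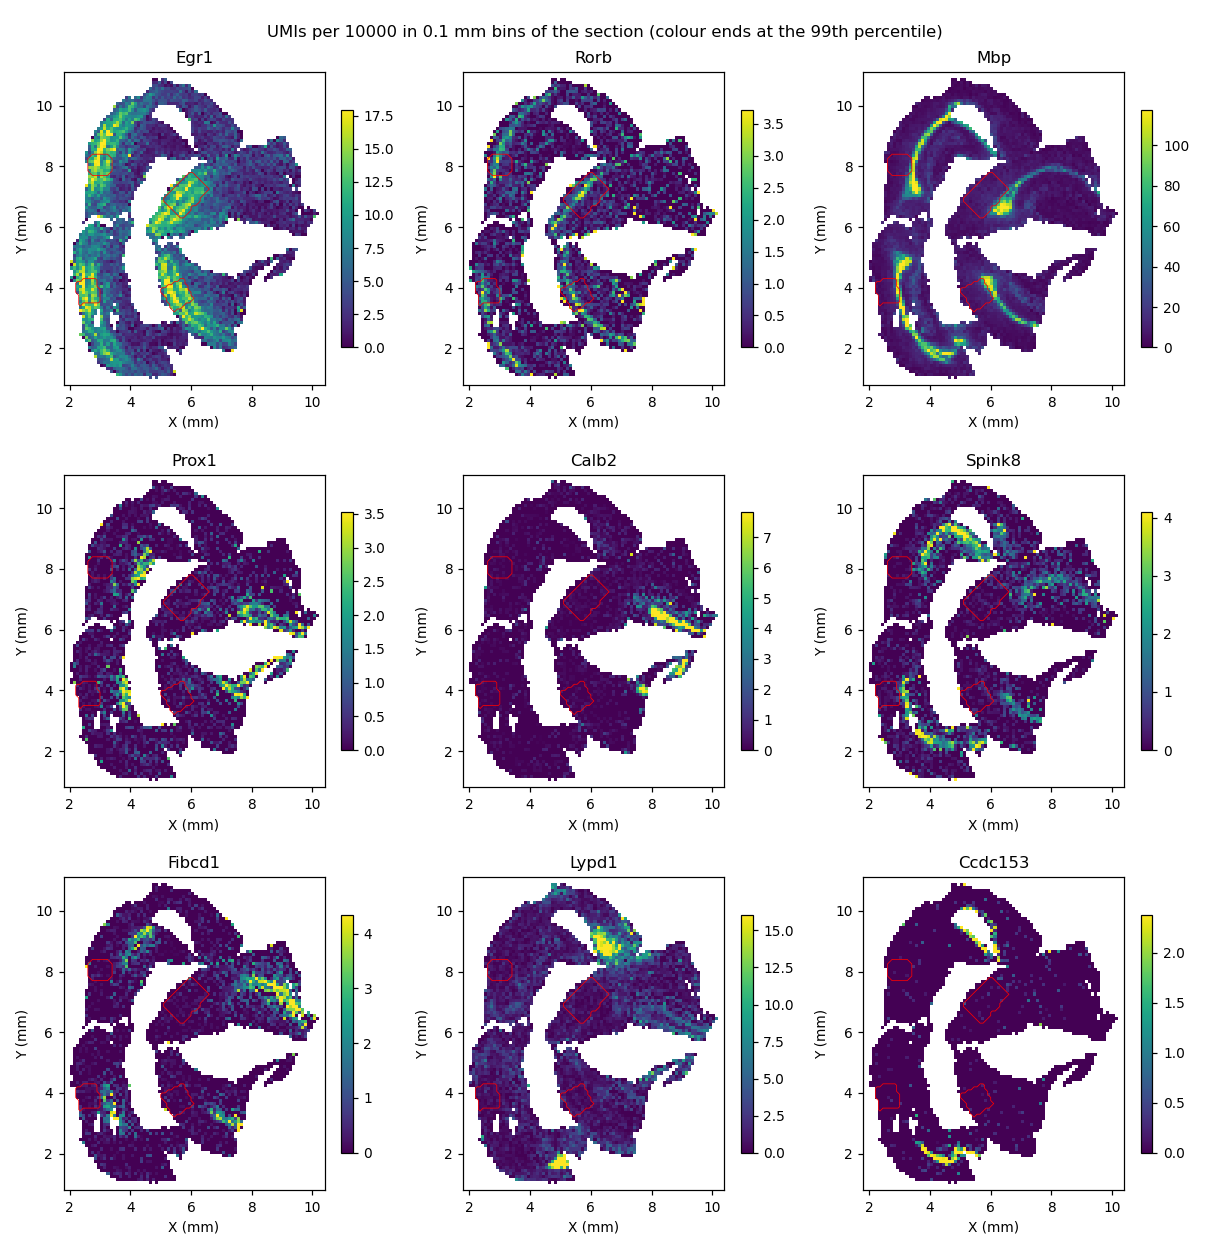
Level of 9 genes in 0.1 mm bins of the section, in UMIs per 10000 with the colour scale of each panel ending at its 99th percentile, and the V1 regions outlined in red and bins of 2000 UMIs or fewer left blank. Egr1 is high in layered bands of cortex in and beyond V1 and Rorb in a thin band of the same cortex, Mbp marks the white matter, and Prox1, Calb2, Spink8, Fibcd1, Lypd1 and Ccdc153 lie in separate bands and patches outside the V1 outlines.

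Markers of the hippocampal formation were among the genes called outside, although the sample is labelled only as cortex. Each was placed on the section by its highest 1 mm tile and by its profile over the 65 tiles. All UMIs outside needed 19 tiles to reach 50%, and the median of the 187 genes was 12 tiles. Of these genes, 7 reached 50% of their UMIs in 5 tiles or fewer, against 8 of all 14457 genes (0.0553%). The 7 genes were Calb2, Ccdc153, Cdhr4, Dsp, Gm32477, Gm35479 and Nts. With 0.5 mm tiles there were 33 such genes, and with at least 2000 UMIs per gene there was 1.

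Of 9 measured genes of the dentate gyrus, 6 were at least 2-fold higher outside, with a median ratio of 2.28, against 1.29% called outside and a median of 1.02 over all genes. Prox1, the homeobox factor that specifies granule cells, was at 0.124, 0.0648, 0.101 and 0.150 in the V1 regions and at 0.358, 0.346, 0.329 and 0.388 in the surroundings, a ratio of 3.10 (2.63 to 3.69). C1ql2, a synaptic organizer of mossy fibres, had levels of 0.137, 0.0463, 0.0376 and 0.0823 inside against 0.349, 0.306, 0.253 and 0.347, a ratio of 3.66 (3.03 to 4.46). Both were highest in the same tile, X 8 to 9 mm and Y 5 to 6 mm. This tile held only 67 outside cells, and each gene reached 3.19 there on 17 UMIs. Their tile profiles had an r of 0.954. The cation channel Trpc6 (ratio 2.14), Zbtb20 (2.08), a repressor needed for hippocampal identity, and Slc29a4 (7.83) followed Prox1 with r of 0.943, 0.896 and 0.885. Slc29a4, a transporter of monoamines, had the highest ratio of all measured genes, with an interval of 3.95 to 18.2 because only 8 UMIs lay inside against 677 outside. Its levels were 0.00815, 0.00926, 0.00376 and 0.00358 in the regions and between 0.0330 and 0.0629 in the surroundings.

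Calb2, the calcium-binding protein calretinin, had an r of 0.612 with Prox1 over tiles. It was at 0.0864 to 0.153 in the V1 regions, and at 0.650, 0.134, 0.0882 and 0.404 in the surroundings of regions 1 to 4, so that regions and surroundings overlapped although the summed ratio was 3.12 (2.65 to 3.69). The surroundings of regions 1 and 4 were high, and those of regions 2 and 3 were close to V1. The 5 highest tiles held 53.8% of its outside UMIs, and its highest tile, X 9 to 10 mm and Y 4 to 5 mm, was at 5.60 (4.93 to 6.34). Within 0.5 mm of V1 it did not differ beyond counting error, with a ratio of 0.962 (0.789 to 1.18). Krt2, a keratin, had the same order of surroundings, at 0.0782, 0.0214, 0.0130 and 0.0573, and a ratio of 4.73 (2.75 to 8.94) on 13 UMIs inside.

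The pyramidal cell genes of the CA fields gave 3 of 13 measured members called outside, against 1.29% of all genes, and a median ratio of 1.55. Spink8, a protease inhibitor of the CA1 pyramidal layer, was at 0.141, 0.0370, 0.150 and 0.143 in the regions and at 0.587, 0.501, 0.440 and 0.447 in the surroundings, a ratio of 4.05 (3.46 to 4.78). Fibcd1, a receptor of the same layer, was at 0.0833 to 0.116 inside and 0.236 to 0.496 in the surroundings, a ratio of 3.62 (3.03 to 4.35). The adhesion protein Amigo2 had a ratio of 2.12 and the mineralocorticoid receptor Nr3c2 one of 1.82. Spink8 and Fibcd1 were not in the same tiles: Spink8 was highest at X 5 to 6 mm and Y 9 to 10 mm, at 2.45, and Fibcd1 at X 8 to 9 mm and Y 7 to 8 mm, at 2.37, and their r over tiles was 0.312. Genes whose profile was closer to Spink8 than to the other reference genes, with r of 0.526 to 0.714, included the imprinted gene Nnat, the copines Cpne7 and Cpne6, the thyroid hormone binding protein Crym and the AMPA receptor auxiliary subunit Shisa6. Nnat was at 0.726 inside and 2.45 outside, a ratio of 3.38 (3.16 to 3.61), and its surroundings were at 3.62, 1.15, 1.03 and 2.92. It lies within Blcap on the other strand. Cpne7 had a ratio of 2.57 (2.41 to 2.75), Shisa6 2.39 (2.20 to 2.61), Cpne6 2.18 (2.05 to 2.33) and Crym 2.10 (2.01 to 2.21).

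Dcn, the proteoglycan decorin that is usually taken as a marker of fibroblasts, had an r of 0.799 with Fibcd1. Dcn was at 0.0179 to 0.0463 in the V1 regions, and its surroundings ran from 0.0338 for region 3 to 0.345 for region 1, so that they overlapped with V1. Its ratio was 4.87 (3.60 to 6.74). Its highest tile, X 9 to 10 mm and Y 6 to 7 mm, was at 1.33. The sodium-proton exchanger Slc9a2 (ratio 3.96) and the sialyltransferase St6galnac5 (2.15) had r of 0.689 and 0.635 with Fibcd1, and Slc9a2 had nearly the same r with Spink8, 0.686. Its relative Slc9a4 (5.13 on 16 UMIs inside) had an r of 0.638 with Spink8, and the neuropeptide Y receptor Npy2r (4.20, 3.20 to 5.60) one of 0.475. Npy2r and Slc9a4 shared a highest tile with 15 other genes, X 4 to 5 mm and Y 3 to 4 mm, the most of any tile. This tile held only 195 outside cells.

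For the subiculum and retrohippocampal cortex, 3 of 7 measured genes were called outside, against 1.29% of all genes, and the median ratio was 1.73. Lypd1, a modulator of nicotinic receptors, was at 0.555 to 0.657 in the 4 regions and at 2.57, 1.37, 1.12 and 2.12 in the surroundings, a ratio of 3.10 (2.89 to 3.33). It was highest at X 6 to 7 mm and Y 8 to 9 mm, with 11.6 (11.2 to 12.0) against a median of 1.40 over tiles. The orphan receptor Gpr101, at 5.97 (3.22 to 12.5) on 10 UMIs inside, had its highest tile at the same place. Similar to Lypd1 over tiles were Hap1, the huntingtin-associated protein, with a ratio of 2.06 and r of 0.742, and the nuclear receptor Nr2f2, with r of 0.739. Nts, the precursor of neurotensin, had a ratio of 2.31 (1.79 to 3.02), with its highest level in the band 0.5 to 1 mm from V1 (0.234) and 0.0570 beyond 2 mm. With the median over tiles the difference of Nts turned to the inside, as did that of Ccdc153. Over tiles Nts had an r of -0.016 with Lypd1 and was closest to Mbp, at 0.584. Cbln1, a synaptic organizer, had a ratio of 2.90 (2.12 to 4.05) and was highest at X 3 to 4 mm and Y 5 to 6 mm, at 0.824, with an r of 0.053 with Lypd1. Both thus had maps unlike that of Lypd1.

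**Figure D5:**
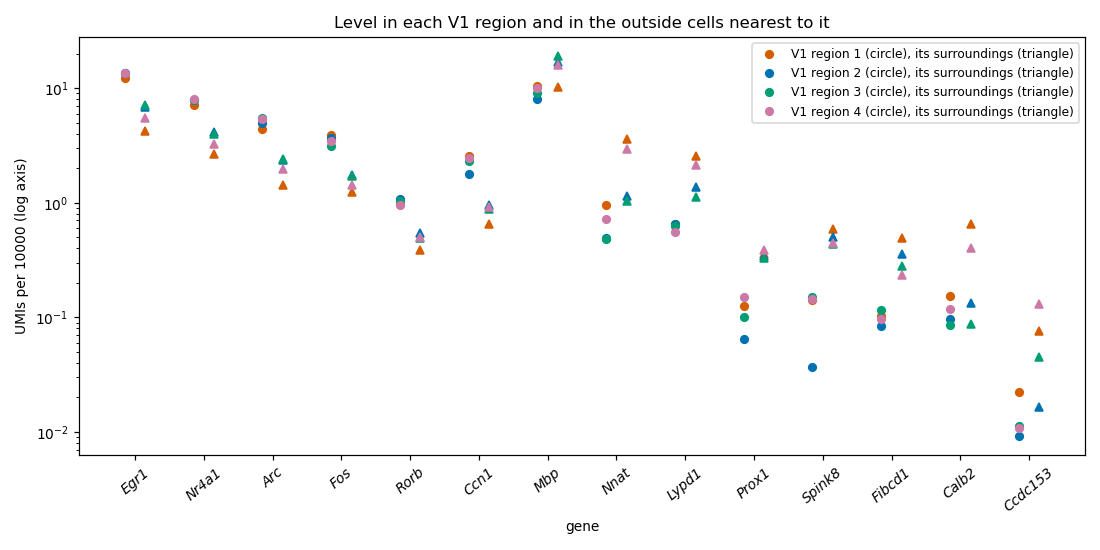
Level of 14 genes in UMIs per 10000 (log axis) in each V1 region (circles) and in the outside cells nearest to it (triangles), coloured by region. Egr1 lies between 12.3 and 13.6 in the regions and between 4.23 and 7.18 in the surroundings, whereas the surroundings of Calb2 run from 0.0882 to 0.650 and those of Ccdc153 from 0.0163 to 0.131.

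Ciliated cells line the ventricles as ependyma, and several of their genes were called outside. Of 5 measured ependymal genes, all had ratios above 1 and 3 were at least 2-fold higher outside, against 1.29% of all genes, with a median of 2.91. The coiled-coil gene Ccdc153 had 19 UMIs inside and 959 outside, a ratio of 4.67 (2.97 to 7.79). Its surroundings were at 0.0756, 0.0163, 0.0453 and 0.131, and the lowest of them overlapped with the V1 regions (0.00926 to 0.0224). The 4 highest tiles held at least 50% of its outside UMIs, and the highest tile, X 4 to 5 mm and Y 1 to 2 mm, was at 0.780 (0.686 to 0.882). The cilia-related genes Meig1 and Cfap144 had ratios of 3.18 (2.29 to 4.54) and 2.91 (2.06 to 4.26). Over tiles, genes called outside with a high r to Ccdc153 included the cilia-related Cdhr4 (r of 0.900), Lrrc23 (0.883), Ak7 (0.881) and Rsph1 (0.878). The predicted gene Gm19935 had the highest r, 0.922, and a ratio of 4.15 (2.54 to 7.30).

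Genes of the choroid plexus, which sits in the ventricles, were sparse. Ttr, the thyroid hormone carrier that defines this tissue, had 133 UMIs outside and 38 inside, which is 0.00983 UMIs per 10000 outside and 0.0303 inside, a ratio of 0.324 (0.224 to 0.478). This rests on V1 region 1, where Ttr was at 0.0673 against 0.00926, 0.00376 and 0.00716 in the other regions. Without region 1 the log2 ratio was 0.58, toward the outside. The other regions held few of the 38 UMIs inside and no interval is given, so this direction is not settled. Only 2 of 11 genes of this list had 500 UMIs. Of these Kl, a coreceptor for fibroblast growth factors, had a ratio of 2.91 (1.96 to 4.52) and Enpp2 one of 1.00. Over tiles the profile of Kl was closest to Spink8, with an r of 0.499, against 0.134 with the ependymal gene Ccdc153.

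Genes on the list of meninges and fibroblasts were at higher levels outside, and most vessel genes differed little. All 7 measured genes of the meninges and fibroblasts had ratios above 1, with a median of 1.73, and Dcn alone reached 2-fold, against 1.29% of all genes called outside. Over tiles Dcn had an r of only 0.020 with the sum of the fibroblast genes Col1a1, Col1a2 and Lum, against 0.799 with Fibcd1. Ptgds, the prostaglandin synthase of the leptomeninges, was at 2.31 outside and 1.31 inside, a ratio of 1.76 (1.68 to 1.85). All 10 measured genes of endothelium and mural cells had ratios above 1, with a median of 1.15, against 7958 of all 14457 genes above 1. The intervals of Pecam1, Slco1a4, Vtn and Bsg included 1. Acta2, the actin of arterial smooth muscle, was the one called, at 5.17 (2.87 to 10.4) on 11 UMIs inside against 614, with regions at 0.00358 to 0.0150 and surroundings at 0.0305 to 0.0514. It overlaps Stambpl1 on the other strand. Among genes called outside, the GABA transporter Slc6a13 (r of 0.955), Fibin (0.917) and Sh3bp2 (0.782) had tile profiles close to that of the sum of Col1a1, Col1a2 and Lum. Fibin and Sh3bp2 had ratios of 3.81 and 3.51 on 14 and 15 UMIs inside.

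Myelin genes were all higher outside, and none reached 2-fold. All 13 genes of the list had ratios between 1.36 and 1.59, with a median of 1.46, against 7958 of 14457 above 1 and 1.29% called outside over all genes. Mbp, the myelin basic protein, was at 14.6 outside and 9.70 inside, a ratio of 1.51 (1.48 to 1.53). Unlike the hippocampal genes named above, Mbp was highest next to V1. It was at 28.3 under 0.25 mm, 21.7 at 0.25 to 0.5 mm, 15.5 at 0.5 to 1 mm, 12.5 at 1 to 2 mm and 6.65 beyond 2 mm. In the cells under 0.5 mm the ratio to V1 was 2.53 (2.48 to 2.58). The white matter lies just beneath the lower edge of the regions, at layer 6.

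The lists of other glia had lower median ratios than the myelin genes, but 2 astrocyte genes passed 2-fold. Of 12 astrocyte genes, 11 had ratios above 1 and 2 were called outside, with a median of 1.34, against 7958 of 14457 above 1 and 1.29% called outside over all genes. These were Gfap, the intermediate filament of fibrous astrocytes, at 2.95 (2.49 to 3.52), and the angiotensin precursor Agt, at 2.40 (1.76 to 3.37). The glutamate transporter Slc1a2 had a ratio of 0.959. Median ratios were 1.20 for 7 genes of oligodendrocyte precursors and 1.17 for 10 genes of microglia, with no gene at 2-fold. The 3 haemoglobin genes measured had a median ratio of 1.04.

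Transcription factors of the midbrain and hindbrain and genes of subcortical transmitters were sparse. Of 30 transcription factors of the midbrain and hindbrain, 3 had at least 500 UMIs, and one of these, Lhx9, had a ratio of 2.41 (1.74 to 3.43), which was 0.613 in the cells under 0.5 mm from V1. Only 2 of 17 genes of subcortical transmitters had that many UMIs, with none called. The lists for thalamus, cerebellum, striatum and amygdala, and layer 1 had 11, 7, 7 and 4 measured genes, of which 1, 2, 0 and 1 were called outside, with median ratios of 1.20, 1.19, 0.989 and 1.37, against 1.29% called outside over all genes. The called genes were Calb2, which is on both the thalamus and the layer 1 list as well as that of the dentate gyrus, and Cbln1 and Gdf10 on the cerebellum list.

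Over all 187 genes called outside, 172 were higher in the surroundings than in the V1 region in all 4 cases, and 140 had no overlap between regions and surroundings, against 1414 of all 14457 genes (9.78%). Levels went up at every step of distance for 30 of them, against 329 of all genes (2.28%), Nnat, Crym, Hap1, Krt2 and Dcn among them. The regions, surroundings and steps split the same counts by which the 187 genes were called. These shares are therefore in part fixed by the call and are given as a description. In cells under 0.5 mm from V1, which are part of the outside cells, 43 of the 187 genes were at a ratio of at least 2. Of the 187 genes, 173 were above 1 there and 14 below, with a median of 1.50. The gene Efnb3, an ephrin ligand, was one whose ratio there (2.13) was as high as over the whole section (2.08). Leaving out V1 region 1, the largest, raised the count of genes called outside from 187 to 300, and leaving it out with its surroundings gave 146.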

How the data were processed

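Per the paper's methods, reads were processed with SAW, the vendor's Stereo-seq pipeline, on GRCm39 after tissue images had been aligned by hand, and the authors deposited UMI counts per gene and segmented cell without normalization. The deposited positions are in spatial units, of which 2 make 1 µm. Whether counting used strand is not given in the sources used here. Columns of class labels hold no value outside V1, so shares of cell labels could not be compared.

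Counts were summed over cells of each side and scaled per 10000 UMIs with Python 3.11.15, numpy 2.4.6, scipy 1.17.1 and pandas 2.3.3. Ratios carry exact Clopper-Pearson intervals and levels exact Poisson intervals at 95%. Genes needed 500 UMIs over both sides. Tiles of 1 mm with at least 50 outside cells gave levels on the section, and a highest tile needed at least 10 UMIs of the gene. Of 61317 features, 61249 were named from GENCODE M39 by identifier, and 1323 of the genes measured carry another symbol in the files.

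The 24 lists, the comparison and the named genes were chosen with earlier results of these data known. Genes were named as the 20 highest and 20 lowest ratios, the 10 most abundant genes called on each side, up to 6 members of each list with the most UMIs, any member called against its list, and Slc17a7, Slc17a6, Gad1 and Gad2. Other named genes, the list of immediate early genes, the surroundings, the tile profiles and the cells under 0.5 mm from V1 were chosen after the values were seen. The opossum section was not analysed here.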

Additional observations from a re-analysis of the deposited data

How the results depend on the processing

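Counts of genes called depended on the filter on genes: with at least 100 UMIs there were 901 outside and 137 inside, and with at least 2000 UMIs 65 and 24. Asking the 95% bound to pass 2-fold left 69 and 23. With the median over tiles in place of the summed level there were 50 outside and 99 inside, and with only outside cells under 0.5 mm from V1, added after the data had been seen, 55 and 0. Of the results for gene lists, 12 of 25 moved with the median over tiles and 15 of 24 with these near cells, and none was reversed. In any other setting at most 3 of 25 list results moved. Leaving out V1 regions one at a time gave 146 to 300 outside and 21 to 53 inside, with or without their surroundings. Other settings (no filter on cells, 200 genes and 300 UMIs, median of ratios, totals without mitochondrial genes, equal weight of cells, outside cells at least 0.25 mm from V1) stayed within 1.5 times, at 181 to 226 outside and 41 to 53 inside. The 7 localised genes became 33 with 0.5 mm tiles, 9 with shifted tiles, 7 with the stricter filter on cells and 1 with at least 2000 UMIs. Of 65 named genes called, 38 were still at least 2-fold with the median over tiles and 19 with outside cells under 0.5 mm from V1. Without V1 region 1 and its surroundings 56 were, and in the other settings 61 to 65. The direction turned for 4. On the log2 scale, Nts came to -0.13 and Ccdc153 to -0.11 with the median over tiles. Calb2 came to -0.056 and Lhx9 to -0.70 with outside cells under 0.5 mm from V1. The cause was not tested. No paired analysis was possible because the section comes from 1 animal and the comparison rests on no replicates.

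Depth limits the genes of low level most: genes with fewer than 20 UMIs inside have intervals that span several fold. Segmentation can also assign RNA to a neighbouring cell.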
